A study of Mus musculus with 18 samples.

Results

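*Lars2*, the gene for the mitochondrial leucyl-tRNA synthetase, was examined together with *Aars2*, *Ears2*, *Fars2*, *Hars2*, *Iars2*, *Mars2*, *Nars2* and *Rars2*, which encode the mitochondrial synthetases for alanine, glutamate, phenylalanine, histidine, isoleucine, methionine, asparagine and arginine. These 9 genes were picked by name from the 47729 genes of the count table. *Lars2* was selected on its change between untreated and treated colons in these same libraries, so its values are given as a description with no test. The question was whether that difference was its own or was shared by the other synthetases, and what else in the table moved with it.

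An aminoacyl-tRNA synthetase joins an amino acid to its tRNA, the step that fixes the reading of the genetic code. Mitochondria translate a small set of respiratory chain proteins from their own DNA with tRNAs encoded there, but every mitochondrial synthetase is encoded in the nucleus, made in the cytosol and imported. Most amino acids therefore have a mitochondrial enzyme and a separate cytosolic one, and the colonic epithelium depends on respiration to burn the butyrate made by gut bacteria.

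RNA from mouse colon was sequenced in 18 libraries, 3 in each of 6 groups. The mice were WT or lacked *Cldn2*, the gene for claudin-2, a pore-forming protein of tight junctions (*Cldn2*KO), and each genotype was left untreated (control), allowed to heal after colitis induced with dextran sulfate sodium (DSS, toxic to the epithelium when drunk; recovery), or given 10 mg/kg of the carcinogen azoxymethane (AOM) and 3 cycles of 2.5% DSS to model cancer that follows colitis (AOM/DSS). All mice were on a C57BL/6 background and carried or lacked the knockout, for which no tissue-specific driver is named, with WT littermates matched for age and sex and no ages given in the sources used here. The study's figure legends give as many mice as libraries for the recovery and AOM/DSS groups, so each library there may be read as 1 mouse. A legend on genes changed in recovering mice also gives 3 per group without naming the group compared. No RNA sequencing legend of the main figures names the controls. P-values measure the spread between these libraries.

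Libraries held 17.6 to 27.4 M counted reads. *Cldn2* stood at 44.5 to 504 counts per M reads (CPM) in the 9 WT libraries and at 0.0555 to 0.557 CPM in the 9 *Cldn2*KO libraries. The summed level of 4 posterior genes of the distal colon (*Hoxb13*, *Hoxd13*, *Hoxd12* and *Hoxd10*) was 466 to 821 CPM in 11 libraries. It was only 1.33 to 2.65 CPM in all 6 recovery samples, whose RNA the study describes as coming from distal colon, and WT control replicate 2 stood apart from its group at 8.05 CPM. The control libraries also carry titles of another form than the treated ones, and anything else particular to how they were made cannot be told apart from the treatment.

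*Lars2* (ENSMUSG00000035202) lies on the plus strand of chromosome 9 (GRCm38, chr9:123366940-123462664), with 3881 exonic bases counted. A stretch of its 3′ UTR is shown here because another gene of the table carries nearly the same bases. In the transcript Lars2-201, of 3894 bases, the coding sequence with its stop codon ran from base 200 to base 2908. Bases 3278 to 3349 of the 3′ UTR (chr9:123462048-123462119) matched a transcript of *Gm15564* (ENSMUSG00000086324, chromosome 16, minus strand), annotated as an antisense RNA. Of these 72 bases 71 were identical, including 1 unbroken run of 52 bases. A window of 30 bases around the single difference is shown to let the 2 loci be compared, in lower case with the differing base in capitals, read 5′ to 3′ from GENCODE M21 transcripts (GRCm38). The windows are at chr9:123462085-123462114 on the plus strand and chr16:35981730-35981759 on the minus strand.
Lars2: ggaacgtgagctgggAttagaccgtcgtga
Gm15564: ggaacgtgagctgggTttagaccgtcgtga

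As background, this stretch resembles the nuclear-encoded large-subunit ribosomal RNA, a resemblance that was not checked against a ribosomal RNA sequence here. The stretch lay inside an exon that the deposited table counts for *Lars2*, and the *Gm15564* window lay inside one it counts for *Gm15564*. A search of the transcripts of 55450 genes, on both strands, for windows of 25 identical bases found 28 overlapping windows shared by the *Lars2* 3′ UTR and *Gm15564*. No other gene shared a window with the 5′ UTR and coding sequence of Lars2-201, and 2 shared one with its 3′ UTR, *Gm15564* and *AA474408*. *AA474408* shared more of them with the *Lars2* 3′ UTR, 44 windows, and stood at 0.713 to 2.65 CPM. None of the 8 other synthetases shared a window with *Gm15564*, which shared at least 1 with 23 genes, *Lars2* included.

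**Figure D1:**
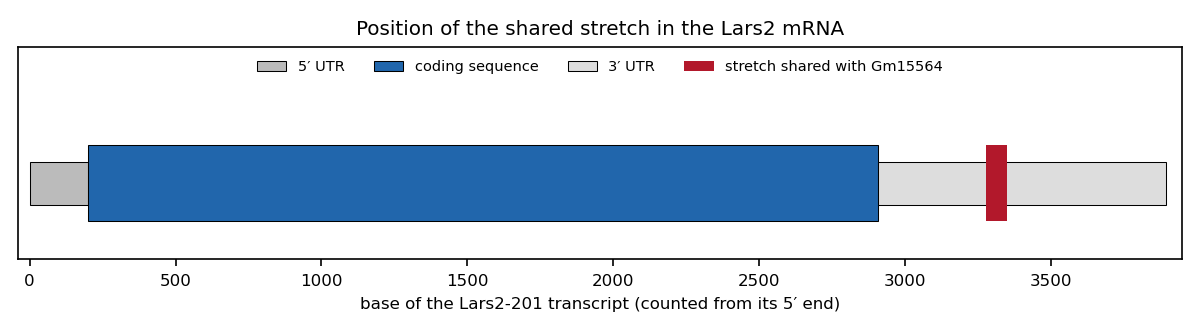
Map of the Lars2-201 transcript, with the base counted from its 5′ end on the horizontal axis. The 72 bases shared with Gm15564 (red, bases 3278 to 3349) lie in the 3′ UTR, beyond the coding sequence that ends at base 2908.

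*Lars2* was high in every control library and low in every treated one. It stood at 440.0, 482 and 568 CPM in WT controls and at 314, 561 and 439 CPM in *Cldn2*KO controls. After recovery it stood at 125, 160.0 and 127 CPM in WT and at 118, 133 and 132 CPM in *Cldn2*KO colons. After AOM/DSS the WT values were 106, 118 and 81.5 CPM, and the *Cldn2*KO values were 92.0, 120.4 and 112 CPM. The lowest control (314 CPM) was above the highest treated library (160.0 CPM), and the genotypes overlapped within each treatment.

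Ordered by group mean, *Lars2* was highest in WT controls (497 ± 65.0 CPM, SD, n = 3), followed by *Cldn2*KO controls (438 ± 123 CPM), WT recovery (137 ± 19.6 CPM), *Cldn2*KO recovery (128 ± 8.09 CPM), *Cldn2*KO AOM/DSS (108 ± 14.5 CPM) and WT AOM/DSS (102 ± 18.7 CPM). The step from *Cldn2*KO controls to WT recovery was the only one between neighbours whose libraries did not overlap. The values rested on 1723 to 11189 reads per library, so counting error was small beside the spread between libraries.

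The fitted log2 fold change of *Lars2* was -1.85 (SE 0.21) in WT and -1.78 (SE 0.21) in *Cldn2*KO recovery against controls of the same genotype. In AOM/DSS it was -2.28 (SE 0.21) in WT and -2.02 (SE 0.21) in *Cldn2*KO colons, a level 4.87-fold and 4.05-fold lower. Recovery and AOM/DSS were set against the same control libraries, so these are not independent of each other. Between genotypes, the log2 difference of *Cldn2*KO from WT was -0.18 (SE 0.20) in controls, -0.10 (SE 0.20) in recovery and 0.08 (SE 0.20) in AOM/DSS. Without WT control replicate 2, the library with little posterior Hox expression, the values were -1.90 in WT recovery and -2.32 in WT AOM/DSS.

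**Figure D2:**
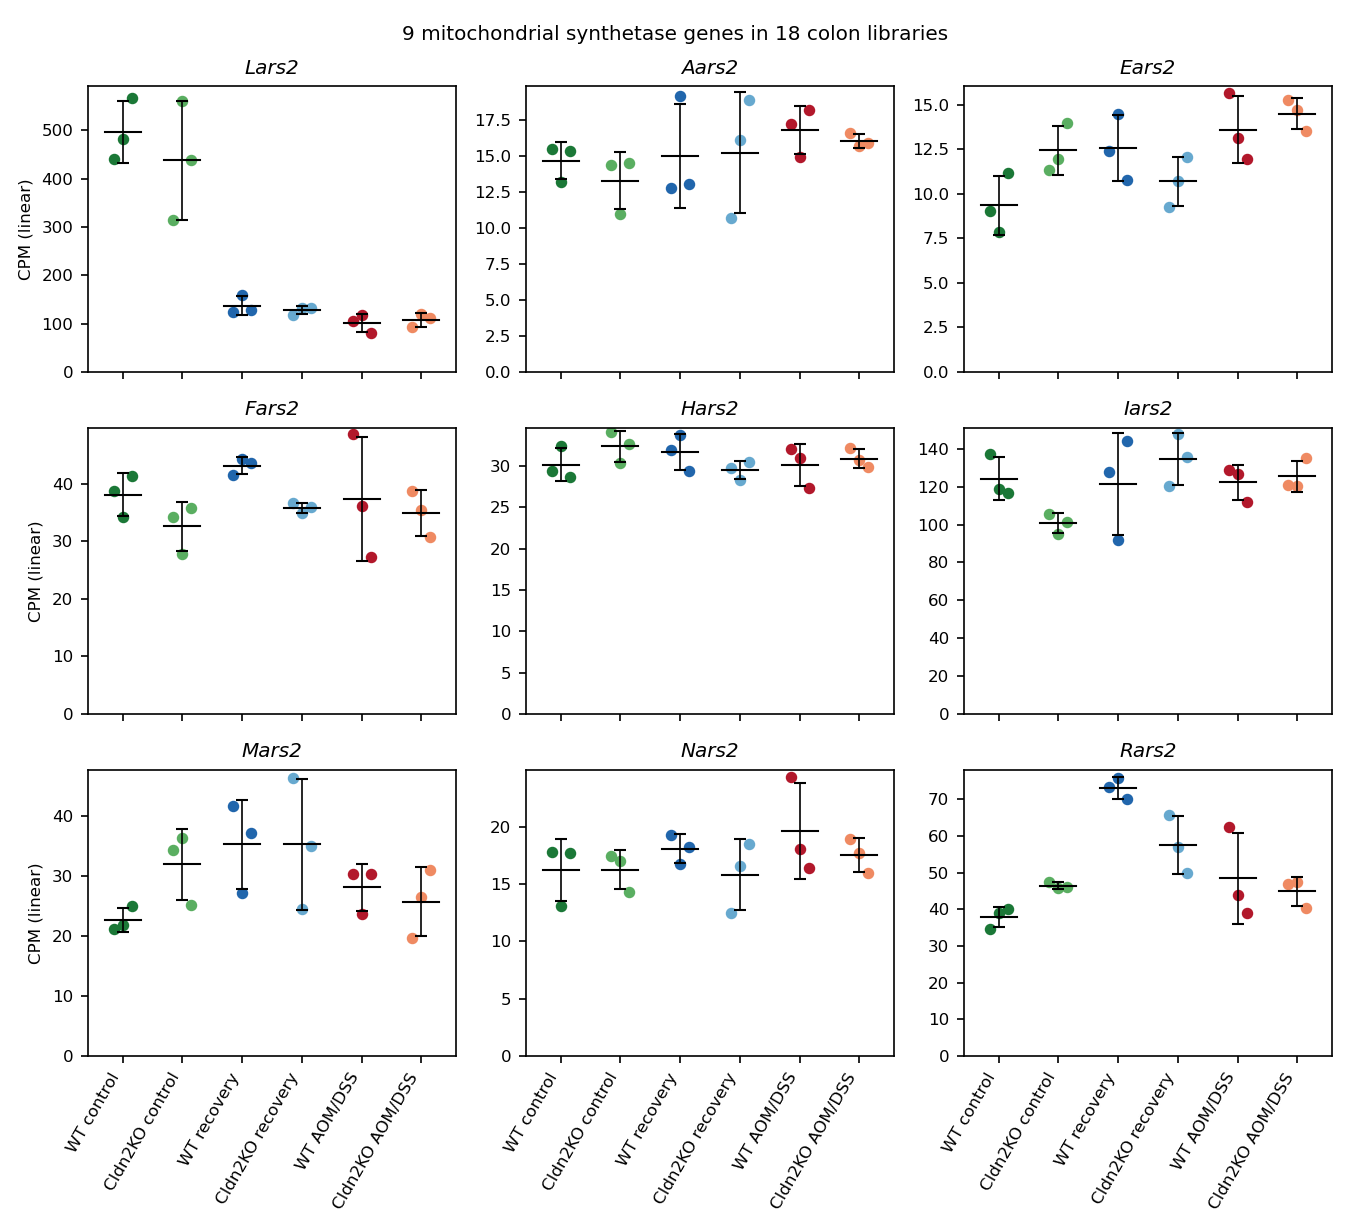
CPM on a linear axis from 0 for the 9 synthetase genes, each point 1 library, with the mean and SD (n = 3) of each group. Lars2 falls into 2 separate levels, 314 to 568 CPM in the 6 controls and 81.5 to 160.0 CPM in the 12 treated libraries, a pattern none of the other 8 panels shows.

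Scaled per kilobase of exon (RPKM), so that genes can be set side by side, *Lars2* had the highest mean of the 9 genes in all 6 groups. The lead was wide in WT controls, with 128 ± 16.7 RPKM (SD, n = 3) against 17.9 ± 1.72 RPKM for *Fars2*, the next gene. In WT recovery it was 35.4 ± 5.05 RPKM, against 26.4 ± 1.04 RPKM for *Rars2*. Over the 18 libraries, *Rars2* (18.6 RPKM), *Fars2* (17.4 RPKM) and *Iars2* (13.7 RPKM) came next, and *Ears2* (2.36 RPKM) was lowest.

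The 8 other synthetases stayed within a narrow range. The highest group mean was 1.10 times the lowest for *Hars2*, 1.24 times for *Nars2*, 1.27 times for *Aars2*, 1.32 times for *Fars2*, 1.34 times for *Iars2*, 1.55 times for *Ears2*, 1.56 times for *Mars2* and 1.93 times for *Rars2*. For *Lars2* it was 4.87 times. The geometric mean of the 8 others was 24.97 to 29.5 CPM in the 6 controls and 27.8 to 35.5 CPM in the 12 treated libraries, so the ranges overlapped.

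Set over that geometric mean library by library, *Lars2* stood at 16.3, 19.3 and 20.0 times the others in WT controls and at 10.7, 20.6 and 15.6 times in *Cldn2*KO controls. In the 6 recovery libraries the ratio was 3.73 to 4.89 times, and in the 6 AOM/DSS libraries 2.94 to 4.05 times. The lowest control ratio (10.7 times) was above the highest treated one (4.89 times). As a ratio within each library, this value does not depend on the scaling.

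*Rars2* (ENSMUSG00000028292, chr4:34614957-34660167, plus strand), the arginyl synthetase, was the 1 gene of the 8 called in any comparison (adjusted p under 0.05, edgeR's quasi-likelihood test with Benjamini-Hochberg adjustment over 16937 genes). It stood at 34.7, 39.0 and 40.0 CPM in WT controls and at 73.4, 75.8 and 70.1 CPM in WT recovery. All 3 recovery libraries were above all 3 controls, the opposite side from *Lars2*, and the log2 fold change was 0.95 (SE 0.16, adjusted p = 0.00145). That is 1 of 8 genes, where 10% of all genes tested were called higher and 12.2% lower in the same comparison.

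In *Cldn2*KO colons *Rars2* stood at 47.5, 45.8 and 46.1 CPM in controls and at 65.7, 57.1 and 50.0 CPM in recovery. The recovery libraries were again higher, but the log2 fold change of 0.31 (SE 0.16) was not called (adjusted p = 0.185). The difference between the genotypes' responses was -0.64 (SE 0.22) and was not called either (adjusted p = 0.154). After AOM/DSS the log2 fold change of *Rars2* was 0.36 (SE 0.16, adjusted p = 0.141) in WT and -0.05 (SE 0.16, adjusted p = 0.908) in *Cldn2*KO colons.

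*Mars2* and *Ears2* came next in WT colons and did not pass the test. *Mars2*, the methionyl enzyme, stood at 21.2, 21.7 and 25 CPM in WT controls and at 41.6, 27.1 and 37.1 CPM in WT recovery, a log2 fold change of 0.64 (SE 0.24, adjusted p = 0.0636). *Ears2*, the glutamyl enzyme, stood at 9.04, 7.86 and 11.1 CPM in WT controls, whereas the WT AOM/DSS libraries held 15.6, 13.1 and 11.96 CPM, a log2 fold change of 0.54 (SE 0.18, adjusted p = 0.0691). In both pairs the treated libraries were all above the controls. DESeq2 called each of these, *Mars2* at an adjusted p of 0.0482 and *Ears2* at 0.0281. *Mars2* was also called without WT recovery replicate 2 (log2 fold change 0.79, adjusted p = 0.0447 by edgeR), and *Ears2* without WT control replicate 3 (log2 fold change 0.68, adjusted p = 0.0492 by edgeR).

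*Iars2*, the isoleucyl enzyme, stood at 106, 95.1 and 101 CPM in *Cldn2*KO controls and at 120.4, 148 and 136 CPM in *Cldn2*KO recovery, all above the controls. Its log2 fold change of 0.42 (SE 0.15) was not called (adjusted p = 0.0624). The remaining members, *Aars2*, *Fars2*, *Hars2* and *Nars2*, had log2 fold changes of -0.13 to 0.27 across the 4 comparisons of treated with control colons.

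Read as a group, the 8 others were centred slightly above the median of all genes. In WT recovery their median log2 fold change was 0.17 and their range -0.03 to 0.95, beside a median of -0.04 over all genes and -1.85 for *Lars2*. In *Cldn2*KO recovery the median was 0.14 (range -0.22 to 0.42), beside 0.00 over all genes. In WT AOM/DSS it was 0.23 (range -0.03 to 0.54) and in *Cldn2*KO AOM/DSS 0.11 (range -0.31 to 0.32), with all genes at 0.01 in both. The lowest values of the 8, -0.31 for *Mars2* in *Cldn2*KO AOM/DSS and -0.22 for *Ears2* in *Cldn2*KO recovery, were far from those of *Lars2*.

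**Figure D3:**
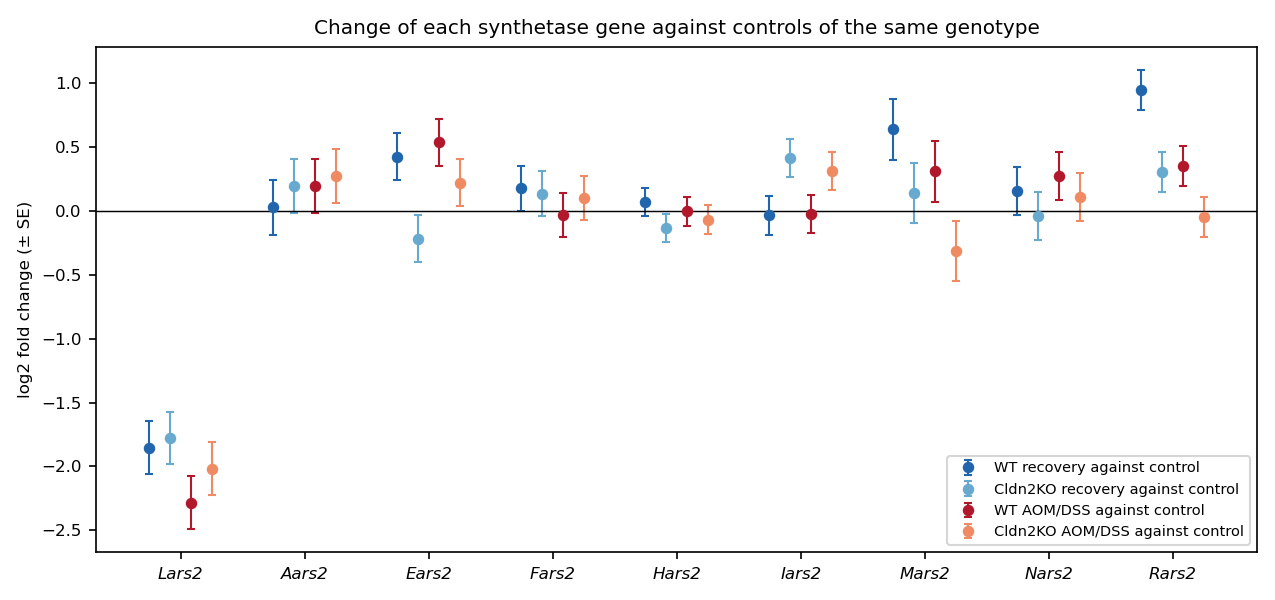
Log2 fold change against controls of the same genotype for each synthetase gene, with the SE of the fit over 18 libraries. Lars2 lies between -2.28 and -1.78 in all 4 comparisons, and the other genes between -0.31 and 0.95.

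None of the 8 was called in the other comparisons. In *Cldn2*KO recovery 9.43% of all genes were called higher and 10% lower, in WT AOM/DSS 3.81% and 6.58%, and in *Cldn2*KO AOM/DSS 0.0768% and 0.118%. Between genotypes, the shares called higher and lower in *Cldn2*KO were 0.124% and 1.05% among controls, 0.549% and 0.425% in recovery, and 0% and 0.0059% in AOM/DSS. For the genotype difference of the response, 0.106% and 0.0236% were called in recovery and 0.0118% and 0% in AOM/DSS. These shares themselves moved with the libraries in the fit. WT AOM/DSS gave 1761 calls over all genes, 170 without WT AOM/DSS replicate 3, 345 without WT control replicate 2 and 7 from the 6 compared libraries alone. *Cldn2*KO AOM/DSS gave 33, but 211 without its replicate 2, 4 to 6 without any other 1 library, 920 from the 6 compared libraries alone and 592 with DESeq2. *Cldn2*KO recovery gave 3291, and 133 with a covariate for *Hoxb13*.

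At an unadjusted p under 0.05 the 8 genes gave 3 in WT recovery, 1 in *Cldn2*KO recovery, 2 in WT AOM/DSS and 0 in *Cldn2*KO AOM/DSS, where 36.3%, 32.5%, 29.9% and 15.2% of all genes did. Between genotypes they gave 1 among controls, 1 in recovery and 0 in AOM/DSS, beside 13.1%, 19.9% and 5.6%. For the genotype difference of the response they gave 3 in recovery (*Rars2*, *Ears2* and *Iars2*) and 0 in AOM/DSS, beside 18.5% and 8.44%. Of these 3, the log2 values were -0.64 for *Rars2*, -0.64 for *Ears2* (adjusted p = 0.207) and 0.45 for *Iars2* (adjusted p = 0.267), so they differed in sign. DESeq2 called 2 of the 8 in WT recovery and 1 in WT AOM/DSS, beside 23.7% and 16.9% of all genes it gave an adjusted p. Limma-voom called 2 in WT recovery, 1 in *Cldn2*KO recovery, 1 between control genotypes and 1 in the genotype difference of the recovery response, beside 47.7%, 33.8%, 14.9% and 10.4% of all genes.

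Further mitochondrial synthetases followed the 8 rather than *Lars2*. Of 9 such genes (*Cars2*, *Gars*, *Kars*, *Pars2*, *Sars2*, *Tars2*, *Vars2*, *Wars2* and *Yars2*, where *Gars* and *Kars* serve both compartments), none was called lower in any comparison, and 1 was called higher in each recovery comparison, near the 10% and 9.43% of all genes. Leaving out 1 library at a time gave 1 to 2 higher and 0 to 1 lower in WT recovery. *Yars2*, the tyrosyl enzyme, rose in WT recovery (log2 fold change 0.74, SE 0.18, adjusted p = 0.0108) and was called without any 1 library (adjusted p up to 0.0427), but not from the 6 compared libraries alone (adjusted p = 0.0598). *Wars2*, the tryptophanyl enzyme, rose in *Cldn2*KO recovery (0.66, SE 0.18, adjusted p = 0.0167), a call lost in 4 of 16 alternatives, among them the *Hoxb13* covariate (0.40, adjusted p = 0.66) and leaving out *Cldn2*KO control replicate 2 (0.58, adjusted p = 0.0711). The lowest log2 fold change of the 9 in the 4 comparisons of treated with control colons was -0.65. The 3 subunits of the amidotransferase that completes mitochondrial glutaminyl-tRNA gave no call, with log2 fold changes of -0.22 to 0.46.

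*Lars*, the cytosolic leucyl-tRNA synthetase, went the other way from *Lars2*. It averaged 51.2 ± 12.8 CPM in WT controls and 85.3 ± 1.87 CPM in WT recovery (SD, n = 3), a rise of 0.73 on the log2 scale (SE 0.16, adjusted p = 0.00543). In WT AOM/DSS it averaged 94.1 ± 8.62 CPM, a rise of 0.88 (SE 0.16, adjusted p = 0.00915). Both calls held without any 1 library (adjusted p up to 0.018 and 0.0468) and were lost when the fit held just the 6 libraries compared (adjusted p = 0.0666 and 0.166). In *Cldn2*KO colons its log2 fold changes were 0.23 (adjusted p = 0.332) in recovery and 0.56 (adjusted p = 0.138) in AOM/DSS.

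Of the 10 cytosolic partners of the 9 genes, 3 were called higher in WT recovery, 1 in *Cldn2*KO recovery, 2 in WT AOM/DSS and 0 in *Cldn2*KO AOM/DSS, and none was called lower. Over all 19 cytosolic synthetases tested, 5, 1, 3 and 0 were called higher in these 4 comparisons and none lower, beside 10%, 9.43%, 3.81% and 0.0768% of all genes. Leaving out 1 library at a time gave 4 to 5 higher and 0 to 1 lower in WT recovery, 0 to 1 higher in *Cldn2*KO recovery and 1 to 3 higher in WT AOM/DSS. *Rars*, the partner of *Rars2*, rose beside it in WT recovery (0.80, SE 0.18, adjusted p = 0.00561), a call kept without any 1 library (adjusted p up to 0.0353) and lost with the *Hoxb13* covariate (0.65, adjusted p = 0.114). *Farsb*, a subunit of the phenylalanyl enzyme, also rose there (0.72, adjusted p = 0.0143), but not without WT recovery replicate 1 (0.55, adjusted p = 0.0641). *Nars* in *Cldn2*KO recovery (0.61, adjusted p = 0.0271) lost its call without *Cldn2*KO control replicate 1 or 2 or *Cldn2*KO recovery replicate 2 or 3 (adjusted p up to 0.116). *Eprs* in WT AOM/DSS (0.60, adjusted p = 0.042) lost it without each library but WT control replicate 3 (adjusted p up to 0.173). Over all 16 alternatives the calls of *Farsb*, *Nars* and *Eprs* were lost in 3, 8 and 9.

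**Figure D4:**
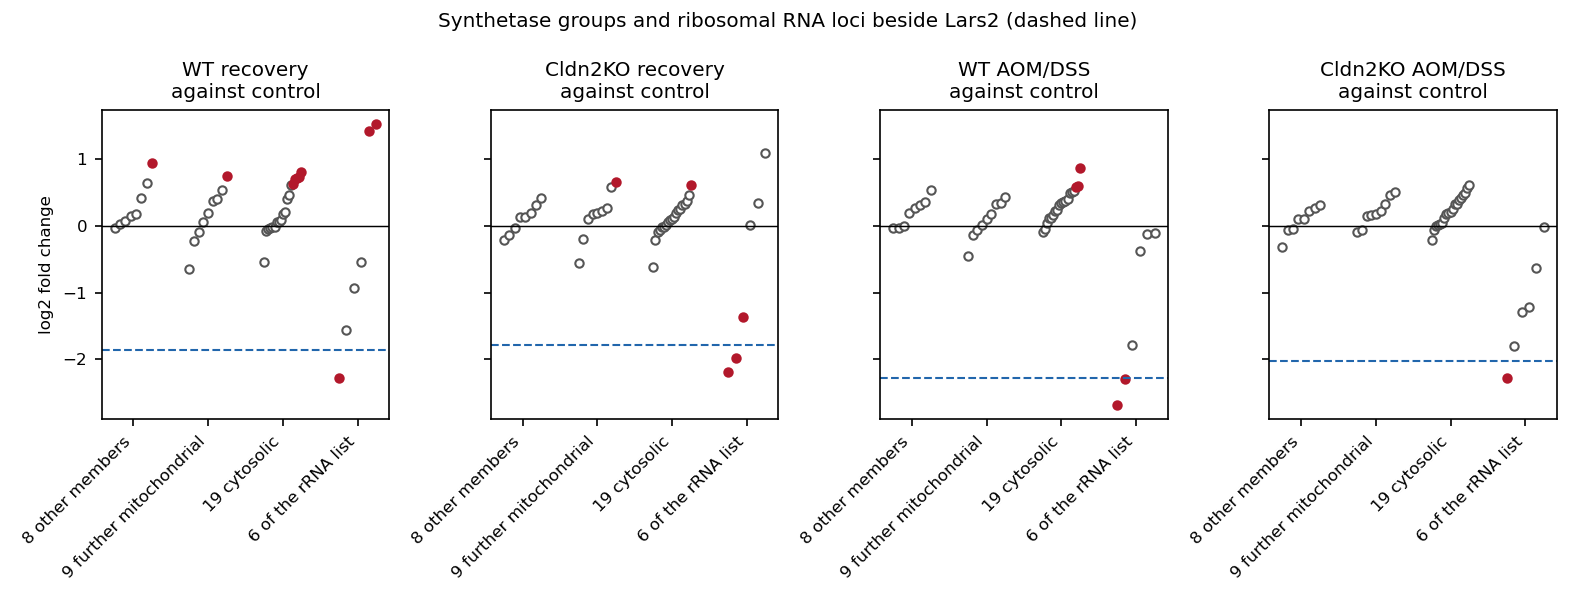
Log2 fold change of treated against control colons for 8 listed synthetases, 9 further mitochondrial ones, 19 cytosolic ones and 6 tested genes of the ribosomal RNA list, each point 1 gene (filled red where called at an adjusted p under 0.05). The dashed line marks Lars2, from -2.28 to -1.78, a depth reached by no synthetase plotted. Gm15564 reached it in all 4 panels, Gm23935 in WT AOM/DSS and Gm26917 in Cldn2KO recovery.

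Other steps of mitochondrial translation were read from lists chosen by name. Of 14 genes of mitochondrial translation, 4 were called higher and 1 lower in WT recovery (beside 10% and 12.2% of all genes), 1 was higher in *Cldn2*KO recovery (beside 9.43%) and none was called in AOM/DSS. Without WT control replicate 1 only 1 was higher in WT recovery, and the other leave-outs gave up to 3. *Lrpprc*, which stabilises mitochondrial mRNAs, rose in recovery in both genotypes (0.64 in WT, adjusted p = 0.00815, and 0.81 in *Cldn2*KO, adjusted p = 0.0021). Both calls held without any 1 library and were lost with the *Hoxb13* covariate (adjusted p = 0.174 and 0.407), and that in WT also from the 6 compared libraries alone (adjusted p = 0.053). In WT recovery *Mtrf1*, a release factor (0.81, adjusted p = 0.044), lost its call without any 1 of the 6 libraries compared (adjusted p up to 0.145), and *Gfm2*, a ribosome recycling factor (-0.53, adjusted p = 0.0232), lost it without WT control replicate 1 or 3 or WT recovery replicate 2 or 3 (adjusted p up to 0.0804). Over all 16 alternatives these calls were lost in 9 and 8.

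Of 15 genes of tRNA processing and modification, 4 were called higher in WT recovery and 3 in WT AOM/DSS, beside 10% and 3.81% of all genes. Leaving out 1 library at a time gave 2 to 4 and 0 to 3. *Trmt10c*, a subunit of mitochondrial RNase P, rose in WT recovery (0.95, adjusted p = 0.00145) and was called in all 16 alternatives. *Qtrt1* in WT AOM/DSS (0.98, adjusted p = 0.0304) lost its call without WT control replicate 1 or 2 or WT AOM/DSS replicate 3 (adjusted p up to 0.13), and in 5 of 16 alternatives in all. The 2 mitochondrial leucine tRNA genes, *mt-Tl1* and *mt-Tl2*, the substrates of the *Lars2* enzyme, had no read in any library.

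Of 16 genes of the amino acid stress response, 4 were called higher and 1 lower in WT recovery, 2 higher in *Cldn2*KO recovery and 1 higher in WT AOM/DSS, beside 10%, 12.2%, 9.43% and 3.81% of all genes. Leaving out 1 library at a time gave 2 to 3 higher in WT recovery, 0 to 4 in *Cldn2*KO recovery and 0 to 2 in WT AOM/DSS. *Asns*, asparagine synthetase, rose in WT recovery by 1.60 on the log2 scale (SE 0.27, adjusted p = 0.00156), a call made in all 16 alternatives. In *Cldn2*KO recovery it rose by 1.07 (SE 0.27, adjusted p = 0.0116), but not without *Cldn2*KO control replicate 2 (0.96, adjusted p = 0.0545). *Pycr1*, an enzyme of proline synthesis in mitochondria, had 3.38, 2.68 and 3.67 CPM in the controls of WT mice. Their recovery libraries held 12.4, 17.8 and 10.8 CPM, and replicates 1 to 3 of WT AOM/DSS held 6.003, 15.2 and 54.4 CPM. Its log2 fold change of 2.06 in WT recovery (SE 0.66, adjusted p = 0.0373) was not called without any 1 of the 6 libraries compared (adjusted p up to 0.108). That of 2.95 in WT AOM/DSS (SE 0.68, adjusted p = 0.022) rested on replicate 3, without which it was 1.70 (adjusted p = 0.107), and was not called without WT control replicate 2 either (2.82, adjusted p = 0.0787). *Atf3*, a stress-induced transcription factor, was lower in WT recovery (-1.64, SE 0.55, adjusted p = 0.0436), a call lost without each library but WT control replicate 2 (adjusted p up to 0.151). Over all 16 alternatives the call of *Asns* in *Cldn2*KO recovery was lost in 2, those of *Pycr1* in 9 and 4 and that of *Atf3* in 8.

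*Gm15564*, the locus that shares sequence with *Lars2*, was the gene whose pattern was most like it. Among 11094 genes with a mean of at least 5 CPM, its log2 CPM, centred on its own mean, differed from that of *Lars2* by a root mean square of 0.22 over the 18 libraries. The next were *Gm23935* (0.44), *Slco2a1*, a prostaglandin transporter (0.44), *Tesk2*, a protein kinase (0.52), and *Arl4d*, a small GTPase (0.53). The 8 other synthetases had differences of 0.95 to 1.15. The genes were ranked by their likeness to *Lars2*, so this is a description.

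*Gm15564* stood at 69.8, 80.1 and 95.7 CPM in WT controls and at 50.8, 91.8 and 78.8 CPM in *Cldn2*KO controls. It stood at 13.1 to 22.2 CPM in the 6 recovery libraries and at 10.2 to 17.3 CPM in the 6 AOM/DSS libraries. As with *Lars2*, every control was above every treated library. Replicate 1 was the lowest of the 3 *Cldn2*KO controls for both, as it was for every other tested locus of the ribosomal RNA list. *Lars2* stood at 5.57 to 6.31 times *Gm15564* in the 6 controls and at 6.80 to 9.70 times in the 12 treated libraries, so *Gm15564* was lower by somewhat more than *Lars2*.

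**Figure D5:**
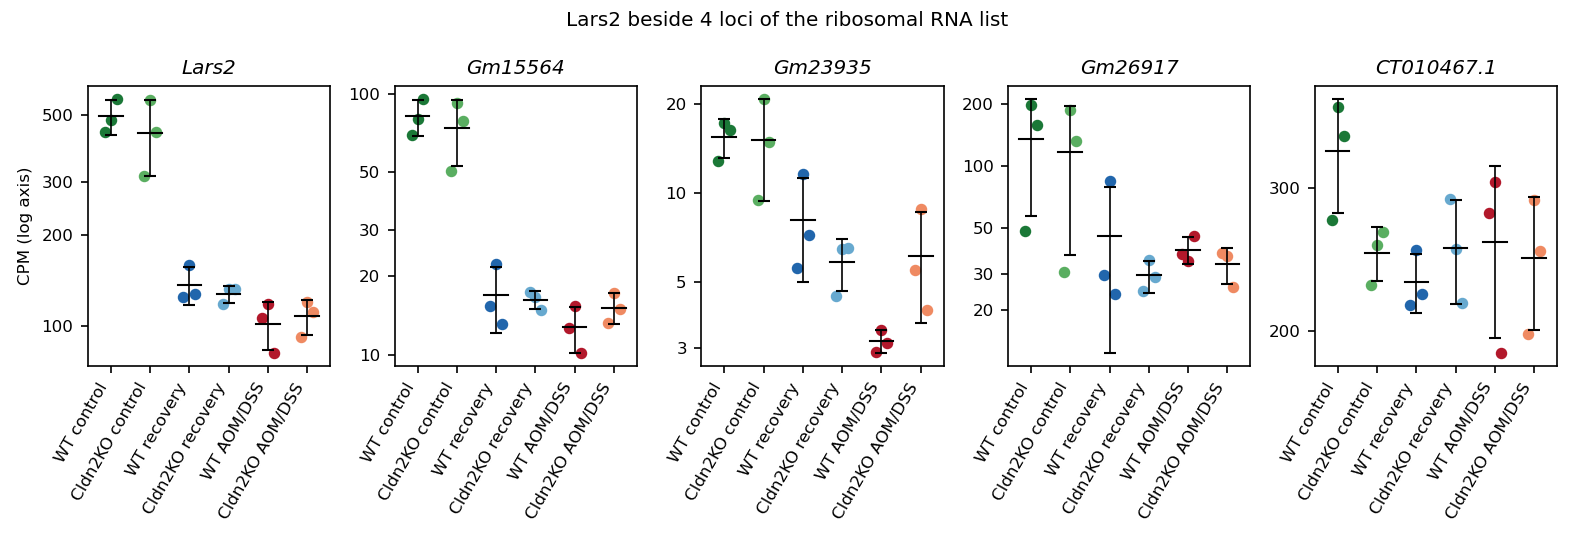
CPM on log axes for Lars2 and 4 loci of the ribosomal RNA list, each point 1 library, with the mean and SD (n = 3) of each group. For both Lars2 and Gm15564 the 6 controls lie above all 12 treated libraries, whereas CT010467.1 spans 188 to 379 CPM with no such split.

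*Gm15564* fell in all 4 comparisons with controls, with log2 fold changes of -2.28 (SE 0.24, adjusted p = 0.000138) in WT recovery, -2.18 (SE 0.24, adjusted p = 0.000121) in *Cldn2*KO recovery, -2.69 (SE 0.24, adjusted p = 8.4e-05) in WT AOM/DSS and -2.29 (SE 0.24, adjusted p = 0.000421) in *Cldn2*KO AOM/DSS. Of the 8 loci on the ribosomal RNA list found in the table, 6 passed the filter, and *Gm42418* and *AY036118*, which overlap *CT010467.1*, had no read in any library. The calls of *Gm15564* held in all 15 alternatives of each comparison. *Gm15564* is set beside *Lars2* for its like pattern, and *Lars2* was selected on this difference. The p-values and held calls of *Gm15564* are therefore a description and no separate support. *Gm23935*, annotated as a miRNA, fell in WT AOM/DSS (-2.29, adjusted p = 0.00425), and in *Cldn2*KO recovery (-1.36, adjusted p = 0.0115) but there not without *Cldn2*KO control replicate 2 (-1.06, adjusted p = 0.0627) or with the *Hoxb13* covariate (-1.61, adjusted p = 0.245). The first was lost from the 6 compared libraries alone (adjusted p = 0.0579). *Gm26917*, annotated as a long noncoding RNA, was called lower in *Cldn2*KO recovery (-1.98, adjusted p = 0.0342), but not without each library other than *Cldn2*KO control replicate 1 (adjusted p up to 0.142), and the call was lost in 10 of 15 alternatives in all. *CT010467.1*, annotated as ribosomal RNA, was not called, with log2 fold changes of -0.54 to 0.02.

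The mitochondrial ribosomal RNAs had log2 fold changes above 0 in recovery and not in AOM/DSS. In WT recovery the log2 fold change was 1.52 for *mt-Rnr1* (SE 0.43, adjusted p = 0.0205) and 1.42 for *mt-Rnr2* (SE 0.43, adjusted p = 0.0278). Both calls were lost without WT control replicate 1 or 3 or WT recovery replicate 2 (adjusted p up to 0.09 and 0.13), and with the *Hoxb13* covariate (0.67, adjusted p = 0.377, and 0.79, adjusted p = 0.396). WT control replicate 2 held 886 CPM of *mt-Rnr1* where replicates 1 and 3 held 270.4 and 318 CPM, and without it the log2 fold change of *mt-Rnr1* was 2.24. In *Cldn2*KO recovery the values were 1.10 (adjusted p = 0.0818) and 0.34 (adjusted p = 0.625). In AOM/DSS the values were on the same side as those of *Lars2* and not called, at -0.10 (adjusted p = 0.903) and -0.13 (adjusted p = 0.875) in WT and at -0.62 (adjusted p = 0.502) and -1.22 (adjusted p = 0.203) in *Cldn2*KO colons. How much of the *Lars2* count came from reads of the shared stretch was not tested, since the table gives 1 count per gene. How reads with several alignments were counted is not given in the sources used here.

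The genes around *Lars2* on chromosome 9 did not share its pattern. Of the 3 tested genes on each side (*Clec3b*, *Cdcp1* and *Tmem158* before it, *Limd1*, *Sacm1l* and *Slc6a20a* after it), none was lower in all 4 comparisons at an adjusted p under 0.05. *Clec3b* had log2 fold changes of -2.02 in WT recovery (adjusted p = 0.0393, lost without each library but WT control replicate 2, up to adjusted p = 0.129) and -2.63 in *Cldn2*KO recovery (adjusted p = 0.0145, lost without *Cldn2*KO control replicate 3 or *Cldn2*KO recovery replicate 2, up to adjusted p = 0.0665), with -0.52 (adjusted p = 0.618) and -0.04 (adjusted p = 0.985) in AOM/DSS. *Cdcp1* and *Limd1* rose in *Cldn2*KO recovery (1.23, adjusted p = 0.000737, and 0.71, adjusted p = 0.00301), calls that held without any 1 library and were lost with the *Hoxb13* covariate (adjusted p = 0.232 and 0.365). *Slc6a20a* was called higher in WT AOM/DSS (1.58, adjusted p = 0.0372), but not without each library other than WT control replicate 3 (adjusted p up to 0.133). Over all 16 alternatives the calls of *Clec3b* were lost in 8 and 4, and that of *Slc6a20a* in 7.

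Markers of tissue makeup also differed between the libraries, and the part of any of them in the level of *Lars2* was not tested. In bulk tissue fewer cells of a type and less RNA per cell cannot be told apart. The summed level of 6 smooth muscle genes was, like *Lars2*, lower in treated than in control colons of each genotype. In WT colons it was 3528 to 5313 CPM in controls, 667 to 2021 CPM in recovery and 524 to 2789 CPM in AOM/DSS. In *Cldn2*KO colons it was 7225 to 9601 CPM in controls, 784 to 1392 CPM in recovery and 2183 to 5476 CPM in AOM/DSS, so that every control was above every treated library of its genotype. Unlike *Lars2*, the highest *Cldn2*KO AOM/DSS library was above the WT controls. Of the 6 genes, 3 were called lower in WT recovery, 6 in *Cldn2*KO recovery, 2 in WT AOM/DSS and 0 in *Cldn2*KO AOM/DSS. The shares of all genes called lower were 12.2%, 10%, 6.58% and 0.118%. Leaving out 1 library at a time gave 1 to 6, 6, 0 to 3 and 0.

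The leukocyte sum (7 genes) had each control above each treated library in WT colons only. It was 851 to 1067 CPM in WT controls, 128.5 to 201 CPM in WT recovery and 358 to 654 CPM in WT AOM/DSS. In *Cldn2*KO colons it was 75.9 to 393 CPM in controls, 46.5 to 62.0 CPM in recovery and 261 to 423 CPM in AOM/DSS, and controls and AOM/DSS overlapped. *Jchain*, a gene of antibody-secreting cells, made up much of the sum in WT controls, at 719, 689.5 and 824 CPM. The 7 genes did not move together. In WT recovery 4 were called lower and 0 higher, in *Cldn2*KO recovery 3 and 2, and in WT AOM/DSS 0 and 1. The shares of all genes called lower and higher were 12.2% and 10%, 10% and 9.43%, and 6.58% and 3.81%. Leaving out 1 library at a time gave 3 to 4 lower and 0 to 1 higher in WT recovery. In *Cldn2*KO recovery it gave 2 to 3 lower and 0 to 2 higher, and in WT AOM/DSS 0 to 1 higher.

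The 8 epithelial genes did not move together. Their sum was 17780 to 63664 CPM in controls, 26126 to 67584 CPM in recovery and 8510 to 13855 CPM in AOM/DSS, and its high values came mostly from *Car1*, a carbonic anhydrase of colonic surface cells. *Car1* stood at 573, 45440 and 605 CPM in WT controls and at 24297, 43582 and 31128 CPM in WT recovery. In WT recovery 4 of the 8 were called lower (*Cdh1*, *Vil1*, *Slc26a3* and *Krt20*) and 1 higher (*Muc2*), beside 12.2% and 10% of all genes, with a median log2 fold change of -0.71. Leaving out 1 library at a time gave 1 to 2 lower, with *Vil1* called each time. In WT AOM/DSS 4 were called lower (*Car1*, *Vil1*, *Slc26a3* and *Krt20*), beside 6.58% of all genes, with a median of -0.98, and 2 to 4 without 1 library. The value of *Car1* there (-4.67) rested on WT control replicate 2, without which it was 0.04 (adjusted p = 0.984). The median was 0.03 in *Cldn2*KO recovery and -0.23 in *Cldn2*KO AOM/DSS. *Epcam* had log2 fold changes of -0.32 to -0.08 in the 4 comparisons, none past the test.

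Neuron and glia genes (5 summed) stood at 29.9 to 57.7 CPM in controls, at 24.0 to 31.2 CPM in recovery and at 11.04 to 26.5 CPM in AOM/DSS of WT colons, so that each WT control was above each WT AOM/DSS library. In *Cldn2*KO colons they stood at 32.3 to 47.1, 34.8 to 42.7 and 16.7 to 34.7 CPM, and the controls overlapped both treated groups. The 5 small intestinal genes summed to 33.0 to 58.7 CPM in controls, 52.9 to 160.5 CPM in recovery and 7.62 to 123 CPM in AOM/DSS of WT colons. These sums came from different genes. *Fabp6* held 32.3 and 39.4 CPM in WT control replicates 1 and 3. *Defa24* had no read in any control and held 121 CPM in WT AOM/DSS replicate 3. In *Cldn2*KO colons they summed to 4.34 to 8.18, 29.2 to 35.7 and 5.91 to 39.7 CPM, so that each recovery library was above each control. *Alpi*, an intestinal alkaline phosphatase, stood at 15.96 to 41.2 CPM in the 6 recovery libraries and at 57.2 CPM in WT control replicate 2, and at 0.215 to 1.39 CPM in the other 11. The libraries with *Alpi* were thus those with little posterior Hox expression, and WT control replicate 2 was among the libraries high in *Lars2*.

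Some members shared exons with a gene on the opposite strand, and whether counting used strand is not given in the sources used here, so their values are uncertain. *Iars2* shared 2323 exonic bases with *Rab3gap2* and 114 with *2010103J01Rik*, *Hars2* shared 195 with *Hars*, its cytosolic partner on the opposite strand, *Nars2* shared 284 with *C230038L03Rik* and *Ears2* shared 145 with *Ubfd1*. *Lars2*, *Rars2*, *Mars2*, *Aars2* and *Fars2* shared none.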

How the data were processed

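RNA was sequenced on an Illumina NovaSeq instrument. Per the study's methods the authors aligned reads with TopHat2, whereas the submitters' processing notes name HISAT2. Both name featureCounts of the Subread package, and the genome build is GRCm38. The authors deposited raw, unnormalized counts for each gene in 36 columns for 18 libraries on 2 lanes, and the lanes were summed here. Strand and multiple-alignment settings and versions are not given in the sources used here. Of 47729 genes, 47224 took a symbol from GENCODE M21.

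Groups came from the genotype and treatment labels. Genes were kept with filterByExpr (16937 kept, 30792 not) and scaled by TMM. The model held 1 mean for each group and used the 18 libraries together (edgeR 4.0.16, quasi-likelihood, robust, R 4.3.3), with a biological coefficient of variation of 0.315, and a call needed p under 0.05 after Benjamini-Hochberg adjustment over all kept genes. The standard error is the log2 fold change over the root of the test's F. Levels are CPM with TMM scaling, and log2 CPM used a prior count of 2. The script was tested on simulated data. The study's own DESeq2 analysis was not used. The edgeR fit replaced it as the main test, with DESeq2 1.42.0 and limma 3.58.1 among the alternatives, beside other scaling, other filters, covariates for *Hoxb13* above 10 CPM and for Xist, and leaving out each library.

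The 9 genes, the gene lists and the alternatives were chosen with earlier results of these data known. *Lars2* received no p-value. Named genes were the 9 members, 9 further mitochondrial synthetases (1 gene of that list is not reported here), each member's cytosolic partner, up to 3 called genes with the largest change in each list and comparison, the loci of the ribosomal RNA list, the 3 tested genes on each side of *Lars2* and the 5 genes most like it. *AA474408*, the single epithelial, leukocyte and small intestinal markers and the genes sharing exons with members were named after their values were seen. Shared sequence was searched as runs of 25 identical bases in GENCODE M21 transcripts.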

Additional observations from a re-analysis of the deposited data

How the results depend on the processing

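The difference of *Lars2* between treated and control colons kept its direction in every alternative run, with log2 fold changes of -2.04 to -1.75 in WT recovery, -1.97 to -1.56 in *Cldn2*KO recovery, -2.39 to -2.14 in WT AOM/DSS and -2.21 to -1.80 in *Cldn2*KO AOM/DSS. Its ratio to the 8 other synthetases moved by less than the pooled SD between replicates (0.26 on the log2 scale) in all 63 alternatives. Those that changed only the scaling could not move a ratio within a library, so only the leave-outs and the sum of the 8 others bear on it. The value of *Lars2* in the genotype difference of the recovery response was 0.42 with limma-voom, against 0.08 with edgeR. The call of *Rars2* in WT recovery held in all 16 alternatives (adjusted p from 1.14e-06 to 0.0311). The count of the 8 others called depended on the tool. DESeq2 called 2 in WT recovery and 1 in WT AOM/DSS, beside 23.7% and 16.9% of all genes it gave an adjusted p. Limma-voom called 1 between control genotypes, 2 in WT recovery and 1 in *Cldn2*KO recovery, beside 14.9%, 47.7% and 33.8% of all genes. It also called 1 in the genotype difference of the recovery response (*Rars2*, adjusted p = 0.0263), beside 10.4%. *Mars2* was the extra gene between control genotypes and in WT recovery, *Ears2* in WT AOM/DSS and *Iars2* in *Cldn2*KO recovery. Leaving out 1 library at a time gave 1 to 2 in WT recovery and 0 to 1 in WT AOM/DSS, where fewer libraries were in the fit. The cause of these changes was not tested. With a replicate block in the controls, whose titles share numbers, the comparison of control genotypes gave 0 of the 8 and -0.21 for *Lars2*. Same-numbered controls deviated together with correlations of 0.16, 0.00 and 0.08 across genes, so the numbers were not taken as pairs. *Car1* in WT AOM/DSS reversed with limma-voom (0.11), with the *Hoxb13* covariate (0.056) and without WT control replicate 2 (0.036, in a range of -5.33 to 0.036 over the libraries left out). By edgeR the adjusted p of *Mars2* in WT recovery (0.0636), *Ears2* in WT AOM/DSS (0.0691) and *Iars2* in *Cldn2*KO recovery (0.0624) lay just above the threshold. The size of change that 3 libraries a group can detect was not computed.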
